A study of Mus musculus with 12 samples.

Results

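The genes described here are 10 genes of immature thymocytes, *Cd8a*, *Cd8b1*, *Cd4*, *Ptcra*, *Rag1*, *Rag2*, *Dntt*, *Cd24a*, *Themis* and *Aqp11*, measured in RNA from sorted thymic *i*NKT cells. They were chosen by symbol as genes of the double-positive (DP) thymocyte and its precursors, and all 10 symbols were found among the 48709 gene rows of the table. The series holds 12 RNA libraries from 7-week-old C57BL/6J mice, in 4 groups of 3, namely miR-155KI NK1.1+, WT NK1.1+, miR-155KI NK1.1- and WT NK1.1- *i*NKT cells. CD4Cre and 2 Rosa26 miR-155 KI alleles define the miR-155KI mice. The WT littermates lack CD4Cre but have the KI allele too, so that all groups share it. The Cre is driven by the *Cd4* promoter, which is already active at the DP stage, so the transgene is not specific to *i*NKT cells. CD8+ thymocytes were removed with magnetic beads, and the remaining cells were sorted by TCRβ, CD1d tetramer binding, NK1.1 and CD44. The labels name a SMART-Seq v4 kit and the study's methods a TruSeq kit, and the methods speak of pooled replicates while the tables hold 3 libraries per group. No library is tied to named mice, so a p-value measures only how far these libraries spread, which may be technical.

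DP thymocytes carry both CD4 and CD8 on their surface and rearrange the TCRα locus with the RAG1 and RAG2 recombinase. They arise from double-negative (DN) thymocytes, in which TCRβ is rearranged, TdT adds bases at the joints and pre-TCRα pairs with the new β chain. *i*NKT cells descend from DP thymocytes that were selected on CD1d of other DP cells. They then lose the recombinase, CD8 and CD24, while part of them keep CD4.

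The stretch before the start site of the pre-TCR and recombination genes is shown because these genes were high in the same library, as described further on. RefSeq promoter windows (build GRCm38.p6) were matched for 7 of the 10 genes, and the 200 bases upstream of the start are printed 5′ to 3′ for 4 of them, with each CANNTG in capitals. This pattern, the E-box, is bound by E proteins such as E2A and HEB. It is its own reverse complement, so both strands give the same matches.
*Ptcra* promoter, chr17:46763713-46763912, minus strand: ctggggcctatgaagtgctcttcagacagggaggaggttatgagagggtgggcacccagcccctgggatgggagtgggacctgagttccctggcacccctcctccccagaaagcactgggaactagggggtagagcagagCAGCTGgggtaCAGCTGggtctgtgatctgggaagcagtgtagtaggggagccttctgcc
*Rag1* promoter, chr2:101649533-101649732, minus strand: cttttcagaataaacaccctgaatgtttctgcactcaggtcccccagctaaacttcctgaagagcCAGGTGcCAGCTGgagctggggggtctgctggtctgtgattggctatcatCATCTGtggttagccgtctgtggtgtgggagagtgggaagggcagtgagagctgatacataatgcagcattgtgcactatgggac
*Rag2* promoter, chr2:101624512-101624711, plus strand: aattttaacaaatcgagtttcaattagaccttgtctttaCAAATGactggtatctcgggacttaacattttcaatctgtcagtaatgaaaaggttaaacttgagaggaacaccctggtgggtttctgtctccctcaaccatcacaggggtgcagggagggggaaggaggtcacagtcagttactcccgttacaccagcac
*Dntt* promoter, chr19:41029075-41029274, plus strand: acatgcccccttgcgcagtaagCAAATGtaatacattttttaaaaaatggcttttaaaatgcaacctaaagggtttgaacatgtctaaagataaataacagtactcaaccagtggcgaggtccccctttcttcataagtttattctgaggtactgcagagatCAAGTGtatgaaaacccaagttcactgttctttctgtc
The *Ptcra* window holds CAGCTG at 60 and 49 bases upstream, and 0.92% of 32851 promoter windows of this length hold that sequence at least 2 times. *Rag1* holds 3 CANNTG sequences, of which the one at 128 bases is CAGCTG (10.9% of all windows), while *Rag2* holds 1 and *Dntt* 2. At least 1 CANNTG lies in 58.2% of all windows. A match is a description of letters, not of a bound site.

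Library depth was between 12819476 and 20518257 counts, so that 3 counts corresponded to between 0.148 and 0.223 CPM (TMM-normalized CPM, the unit of every level given here). *i*NKT markers were present in every library, with *Trav11*, the Vα14 segment, at 359 to 610 CPM in miR-155KI NK1.1+, 460 to 555 CPM in WT NK1.1+, 261 to 284 CPM in miR-155KI NK1.1- and 223 to 254 CPM in WT NK1.1- libraries. *Mir155hg*, the host transcript of miR-155, averaged 116 ± 18.5 CPM in miR-155KI NK1.1+ and 11.6 ± 0.783 CPM in WT NK1.1+ libraries, and 137 ± 8.43 CPM in miR-155KI NK1.1- and 11.9 ± 1.94 CPM in WT NK1.1- libraries (SD, n = 3 each), as the labels state the genotypes. The sex of the mice is not labelled. The Y-linked gene *Ddx3y* was 58.1 to 78.4 CPM and *Xist* 8.32 to 36.7 CPM in the 6 miR-155KI libraries. WT replicate 1 of both pools was near these levels (*Ddx3y* 64.2 CPM in NK1.1+ and 51.2 CPM in NK1.1-), whereas WT replicates 2 and 3 had *Ddx3y* of 3.32 to 6.79 CPM and *Xist* of 134 to 233 CPM. Sex-linked RNA thus moved in part with genotype. miR-155KI NK1.1+ replicate 1 stood apart in the genes described here. Of the 10 genes, 7 had their highest level of all 12 libraries there, against 9.66% of the 14333 genes that passed the low-count filter over all libraries. The 7 include *Rag2*, which did not pass that filter. The library was singled out after its values were seen, and fold changes in which it takes part are given with and without it where it moved them most.

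*Cd8a* and *Cd8b1*, which encode the α and β chains of the CD8 coreceptor for MHC class I, were low in most libraries and high in 3, all of them replicate 1. *Cd8a* (chr6:71373427-71379173, GRCm38, plus strand) was 24.4, 0.799 and 2.39 CPM in miR-155KI NK1.1+ replicates 1, 2 and 3, against 0.796, 1.06 and 1.48 CPM in WT NK1.1+ replicates. It was 12.0, 0.968 and 2.11 CPM in miR-155KI NK1.1- against 16.4, 2.81 and 1.01 CPM in WT NK1.1- replicates. Replicate 1 of both NK1.1- groups and of miR-155KI NK1.1+ thus held over 10 CPM and every other library under 3 CPM, and the groups overlapped. *Cd8b1* (chr6:71322788-71337494, plus strand) was 17.9, 2.70 and 8.77 CPM in miR-155KI NK1.1+ against 2.92, 2.41 and 2.22 CPM in WT NK1.1+ replicates. In NK1.1- cells it was 9.84, 1.94 and 5.43 CPM in miR-155KI against 18.5, 3.42 and 2.31 CPM in WT replicates. Its 3 highest libraries were again replicate 1 of these 3 groups, with WT NK1.1- first, and replicate 3 of both miR-155KI groups came next. In bulk RNA, fewer cells of a type and less RNA per cell cannot be told apart.

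*Cd4* (chr6:124864692-124888221, minus strand), the coreceptor for MHC class II, behaved unlike CD8. It was 233, 133 and 182 CPM in miR-155KI NK1.1+ against 166, 156 and 174 CPM in WT NK1.1+ replicates, and 322, 266 and 373 CPM in miR-155KI NK1.1- against 308, 304 and 336 CPM in WT NK1.1- replicates. All NK1.1- libraries lay above all NK1.1+ libraries, and within a pool the genotypes overlapped. Per kilobase of exon, the median level of *Cd4* was 45.0 CPM in miR-155KI NK1.1+ and 79.7 CPM in miR-155KI NK1.1- cells, where *Cd8a* had 0.656 and 0.579 CPM. On this scale *Cd4* was thus far above *Cd8a* in both groups.

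**Figure D1:**
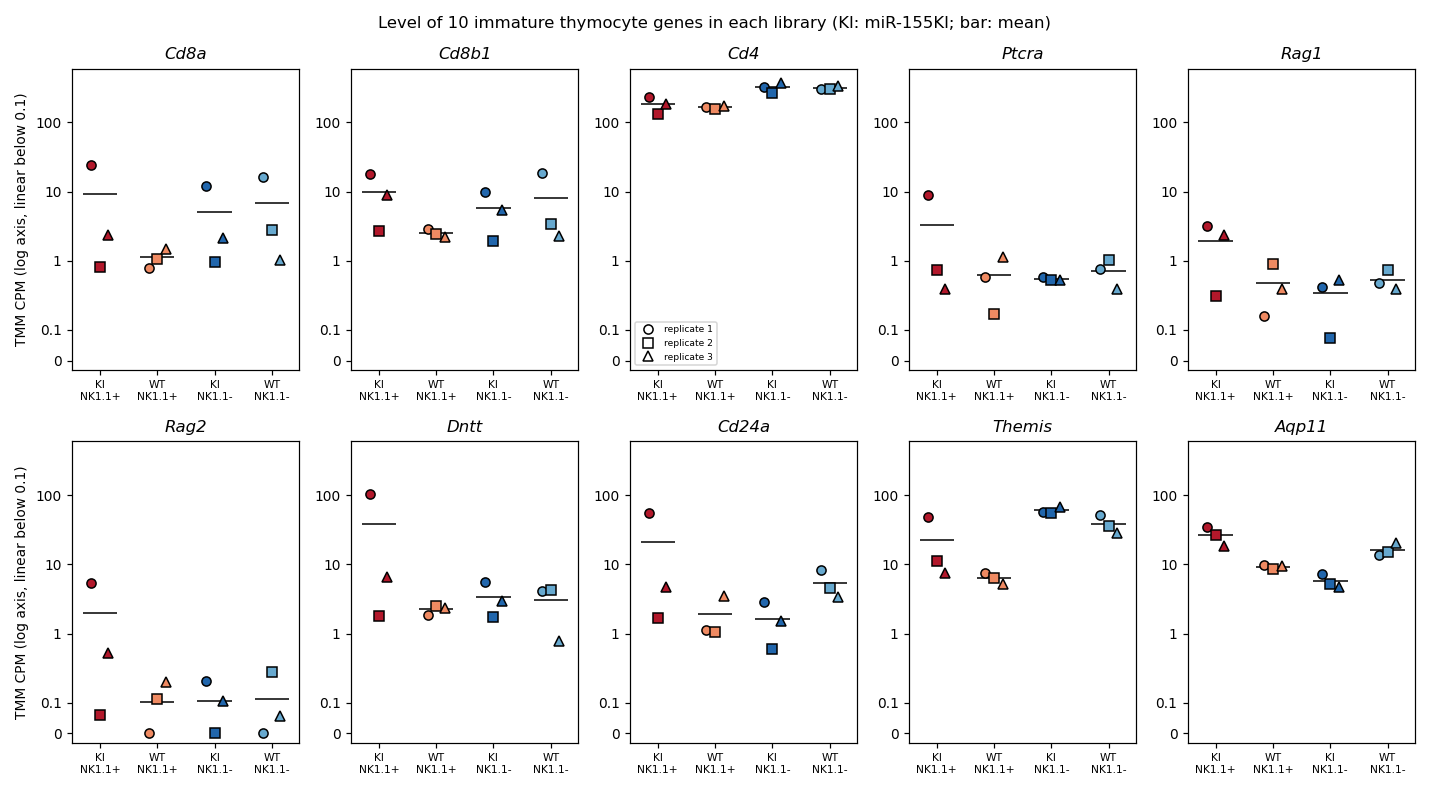
TMM-normalized CPM (vertical axis, logarithmic, linear below 0.1) of the 10 genes in the 12 libraries by group, with circles, squares and triangles for replicates 1, 2 and 3 and bars for group means. In 7 panels the circle of miR-155KI NK1.1+ is the highest point, and *Aqp11* shows miR-155KI above WT for NK1.1+ and below it for NK1.1-.

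Pre-TCR and recombination genes were low in most libraries and highest in miR-155KI NK1.1+ replicate 1. *Dntt* (chr19:41029275-41059525, plus strand), which encodes TdT, was 106, 1.78 and 6.58 CPM in miR-155KI NK1.1+ against 1.86, 2.52 and 2.32 CPM in WT NK1.1+ replicates, and 5.49, 1.71 and 2.95 CPM in miR-155KI NK1.1- against 4.09, 4.32 and 0.788 CPM in WT NK1.1- replicates. *Ptcra* (chr17:46755663-46763712, minus strand), which encodes pre-TCRα, was 8.84, 0.737 and 0.387 CPM in miR-155KI NK1.1+ against 0.584, 0.168 and 1.13 CPM in WT NK1.1+ replicates, and lay between 0.394 and 1.01 CPM in all 6 NK1.1- libraries. miR-155KI NK1.1+ replicate 1 held 16.1 times as much *Dntt* and 7.79 times as much *Ptcra* as the next highest of the other 11, and those 11 overlapped between groups. *Rag1* (chr2:101638282-101649501, minus strand) was 3.21, 0.307 and 2.32 CPM in miR-155KI NK1.1+ against 0.159, 0.896 and 0.395 CPM in WT NK1.1+ replicates. *Rag2* (chr2:101624718-101632529, plus strand) was 5.30, 0.0614 and 0.516 CPM in miR-155KI NK1.1+ against 0, 0.112 and 0.197 CPM in WT NK1.1+ replicates, where the 0 allows up to 0.159 CPM. In NK1.1- cells *Rag1* was 0.419, 0.0745 and 0.527 CPM in miR-155KI against 0.477, 0.729 and 0.394 CPM in WT replicates, and *Rag2* reached at most 0.209 CPM among miR-155KI and 0.281 CPM among WT libraries, with 1 library of each at a count of 0, which allows up to 0.223 CPM in that miR-155KI and 0.204 CPM in that WT library. Outside miR-155KI NK1.1+ replicates 1 and 3, *Rag1* was thus at most 0.896 CPM and *Rag2* at most 0.281 CPM. *Rag1* and *Rag2* share their locus with the annotated gene B230118H07Rik and *Ptcra* overlaps Gm26904 on the opposite strand. Whether strand was used in counting is not stated, so reads of overlapping genes cannot be told apart.

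The ratio of these genes to *Cd8a* differed between the 3 libraries with high *Cd8a*. Of the reads of *Dntt* and *Cd8a* together, *Dntt* took 81.3% in miR-155KI NK1.1+ replicate 1 (1620 of 1992 reads, exact 95% interval 79.5% to 83.0%). It took 31.4% in miR-155KI NK1.1- replicate 1 (26.5% to 36.7%) and 19.9% in WT NK1.1- replicate 1 (15.6% to 24.9%). These intervals do not overlap, although they cover counting error only, as reads without molecular identifiers are not independent molecules. *Ptcra* took 26.6% of the *Ptcra* and *Cd8a* reads in miR-155KI NK1.1+ replicate 1 (22.8% to 30.7%), against 4.58% in miR-155KI NK1.1- replicate 1 (2.31% to 8.05%) and 4.37% in WT NK1.1- replicate 1 (2.20% to 7.68%). In the libraries with low *Cd8a*, *Dntt* took 43.8% to 73.4% and *Ptcra* 13.6% to 48.0% of such reads, from small counts. The *Ptcra* share of miR-155KI NK1.1+ replicate 1 lay within that range and its *Dntt* share above it. Both shares of replicate 1 of the NK1.1- groups lay below. High *Cd8a* thus came with high *Dntt* and *Ptcra* in miR-155KI NK1.1+ replicate 1 and with much lower levels of both in replicate 1 of the NK1.1- groups.

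**Figure D2:**
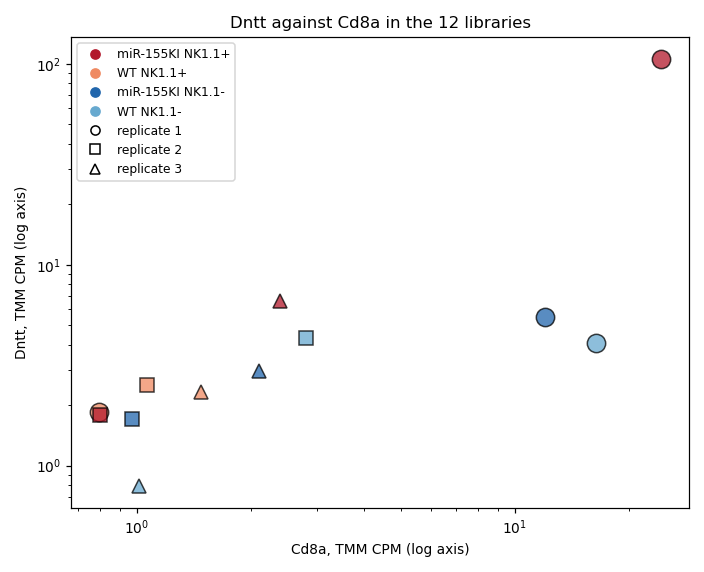
*Dntt* (vertical axis) against *Cd8a* (horizontal axis) in the 12 libraries, both as TMM-normalized CPM on log axes, with color for the group and shape for the replicate. miR-155KI NK1.1+ replicate 1 lies alone at 24.4 CPM of *Cd8a* and 106 CPM of *Dntt*, and replicate 1 of the NK1.1- groups has high *Cd8a* with *Dntt* at 5.49 CPM for miR-155KI and 4.09 CPM for WT.

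*Cd24a* (chr10:43578284-43584265, plus strand) encodes CD24, the surface antigen lost as thymocytes and *i*NKT cells mature. It was 56.2, 1.66 and 4.77 CPM in miR-155KI NK1.1+ against 1.11, 1.06 and 3.50 CPM in WT NK1.1+ replicates, and 2.83, 0.596 and 1.53 CPM in miR-155KI NK1.1- against 8.38, 4.49 and 3.38 CPM in WT NK1.1- replicates. In NK1.1- cells all miR-155KI libraries lay below all WT libraries, and in NK1.1+ cells the genotypes overlapped. *Themis* (chr10:28668360-28883818, plus strand) encodes an adaptor of TCR signaling needed for positive selection. It was 47.9, 11.1 and 7.61 CPM in miR-155KI NK1.1+ against 7.64, 6.39 and 5.23 CPM in WT NK1.1+ replicates, and 56.8, 55.9 and 68.5 CPM in miR-155KI NK1.1- against 51.1, 35.5 and 28.9 CPM in WT NK1.1- replicates. All NK1.1- libraries held more *Themis* than 5 of the 6 NK1.1+ libraries, and miR-155KI NK1.1+ replicate 1 reached into the range of WT NK1.1-. *Aqp11* (chr7:97724006-97738289, minus strand), which encodes an aquaporin of intracellular membranes, was 34.6, 26.4 and 18.5 CPM in miR-155KI NK1.1+ against 9.71, 8.68 and 9.52 CPM in WT NK1.1+ replicates, and 7.38, 5.14 and 4.69 CPM in miR-155KI NK1.1- against 13.8, 15.2 and 20.2 CPM in WT NK1.1- replicates. The groups thus ranked from miR-155KI NK1.1+ through WT NK1.1- and WT NK1.1+ down to miR-155KI NK1.1-, and only the first and second of these overlapped. *Cd4*, *Themis* and *Aqp11* were all above 4 CPM in each library, also where *Rag2* had a count of 0.

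In NK1.1+ cells, 9 of the 10 genes could be tested between miR-155KI and WT, and all 9 had a positive log2 fold change, yet none passed the test. *Dntt* had a log2 fold change of 4.08 ± 1.64 (standard error, SE, edgeR adjusted p = 0.426), *Cd24a* 3.44, *Cd8a* 3.02, *Ptcra* 2.37, *Rag1* 1.94, *Cd8b1* 1.93, *Themis* 1.77, *Aqp11* 1.46 and *Cd4* 0.10. Of the 9, edgeR called 0 higher and 0 lower, against 0.0231% of 12991 genes higher and 0% lower, while 5 of the 9 and 1539 of all genes had an unadjusted p under 0.05. DESeq2 called *Cd8b1*, *Themis* and *Aqp11*, with 316 called over all genes. Only *Aqp11* did not overlap between genotypes, against 16.3% of all genes tested. A gene can pass the low-count filter through its high libraries alone, so the shared direction is read as a description. Without miR-155KI replicate 1 the log2 fold changes were 0.85 for *Dntt*, 0.71 for *Cd24a*, 0.46 for *Cd8a*, -0.22 for *Ptcra*, 1.37 for *Rag1*, 1.141 for *Cd8b1*, 0.49 for *Themis*, 1.21 for *Aqp11* and -0.12 for *Cd4*. The large values thus rested on this library, *Ptcra* and *Cd4* turned round without it, and *Aqp11* changed least among the genes with a value over 1.

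**Figure D3:**
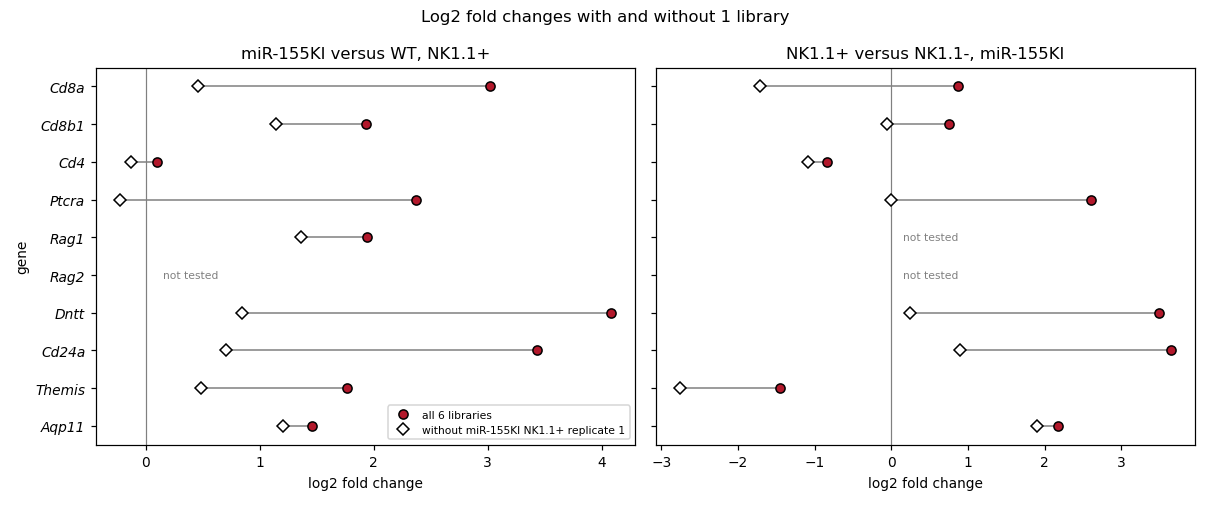
Log2 fold change (horizontal axis) of each gene (vertical axis) between miR-155KI and WT NK1.1+ cells, left, and between NK1.1+ and NK1.1- cells of miR-155KI mice, right, with all 6 libraries (red circles) and without miR-155KI NK1.1+ replicate 1 (open diamonds). On the left *Dntt* lies at 4.08 with and at 0.85 without that library, and *Aqp11* at 1.46 with and 1.21 without it.

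In NK1.1- cells *Aqp11* was lower in miR-155KI than in WT cells, by a log2 fold change of -1.54 ± 0.25 (SE, edgeR adjusted p = 0.00385). It was the only 1 of 8 tested genes that passed, 0 being higher and 1 lower, against 1.93% of 13304 genes higher and 1.5% lower. With the ratio of Y-linked genes to *Xist* as a covariate its log2 fold change was -1.36 (edgeR adjusted p = 0.0862), so the call was lost. WT replicate 1, whose *Ddx3y* was nearest to that of the miR-155KI libraries, had 13.8 CPM of *Aqp11*. WT replicates 2 and 3 had 15.2 and 20.2 CPM, and the miR-155KI libraries 4.69 to 7.38 CPM. Sex-linked RNA moved in part with genotype, so their parts in the *Aqp11* difference cannot be told apart. *Cd24a* had -1.72 ± 0.52 (SE, edgeR adjusted p = 0.1) and *Themis* 0.62 ± 0.19 (SE, edgeR adjusted p = 0.115). DESeq2 called both, with 960 called over all genes. *Aqp11*, *Cd24a* and *Themis* did not overlap between genotypes, against 23.2% of all genes tested. Without WT replicate 1 *Themis* passed (log2 fold change 0.88, adjusted p = 0.00653 from edgeR). *Cd4* had -0.01, *Cd8a* -0.44, *Cd8b1* -0.51, *Ptcra* -0.44 and *Dntt* 0.11, with adjusted p between 0.775 and 0.978 from edgeR. *Rag1* and *Rag2* were removed by the low-count filter. For *Cd8a*, leaving out miR-155KI replicate 1 gave -2.13, leaving out WT replicate 1 gave 1.35, and leaving out miR-155KI replicate 2 gave 0.016, so its sign depended on single libraries.

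Between the pools, *Cd4* and *Themis* were lower in WT NK1.1+ than in WT NK1.1- cells. *Themis* had a log2 fold change of -2.62 ± 0.25 (SE, edgeR adjusted p = 3.7e-05), *Cd4* -0.97 ± 0.11 (SE, edgeR adjusted p = 0.000133) and *Aqp11* -0.85 ± 0.21 (SE, edgeR adjusted p = 0.0146). These 3 of 8 tested genes fell and 0 rose, against 10.9% of 13555 genes lower and 9.89% higher, and the same 3 did not overlap, against 37.7% of all genes. The *Aqp11* call was lost without WT NK1.1- replicate 3, WT NK1.1+ replicate 2 or WT NK1.1+ replicate 3 (edgeR adjusted p = 0.0768, 0.0549 and 0.0530). WT libraries of the same replicate number deviated together, and with the replicate number as a block *Cd24a* passed too, at -1.64 (edgeR adjusted p = 0.0395) against -1.54 (edgeR adjusted p = 0.0615) without it. *Cd8a* had -2.62 (edgeR adjusted p = 0.141). It had -3.14 without WT NK1.1- replicate 3 (edgeR adjusted p = 0.0207) but -0.82 without WT NK1.1- replicate 1 (edgeR adjusted p = 0.444). *Cd8b1* had -1.71, and -0.23 without WT NK1.1- replicate 1, so the CD8 values rested on that library. *Dntt* had -0.50 and *Ptcra* -0.23, and neither these nor *Cd8b1* passed.

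In miR-155KI mice *Aqp11* ran the other way and was higher in NK1.1+ than in NK1.1- cells, by a log2 fold change of 2.18 ± 0.34 (SE, edgeR adjusted p = 0.0026). *Cd4* fell with a log2 fold change of -0.84 ± 0.21 (SE, edgeR adjusted p = 0.0265), a call lost without NK1.1- replicate 1, NK1.1- replicate 3 or NK1.1+ replicate 3 (edgeR adjusted p = 0.0764, 0.129 and 0.0810). Of 8 tested genes 1 rose and 1 fell, against 7.92% of 12942 genes higher and 6.15% lower. *Themis* had -1.45 (edgeR adjusted p = 0.157) and -2.75 without miR-155KI NK1.1+ replicate 1 (edgeR adjusted p = 0.000244). *Themis*, *Cd4* and *Aqp11* did not overlap between the pools, against 34.3% of all genes. *Cd24a* had 3.64 (edgeR adjusted p = 0.087), *Dntt* 3.49 and *Ptcra* 2.60, and without that library 0.90, 0.24 and -0.01, while *Cd24a* passed without NK1.1+ replicate 2 (edgeR adjusted p = 0.0256). *Cd8a* had 0.87 and *Cd8b1* 0.76, against -1.71 and -0.058 without that library. The comparisons share libraries, so their values are set side by side and are not independent.

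**Figure D4:**
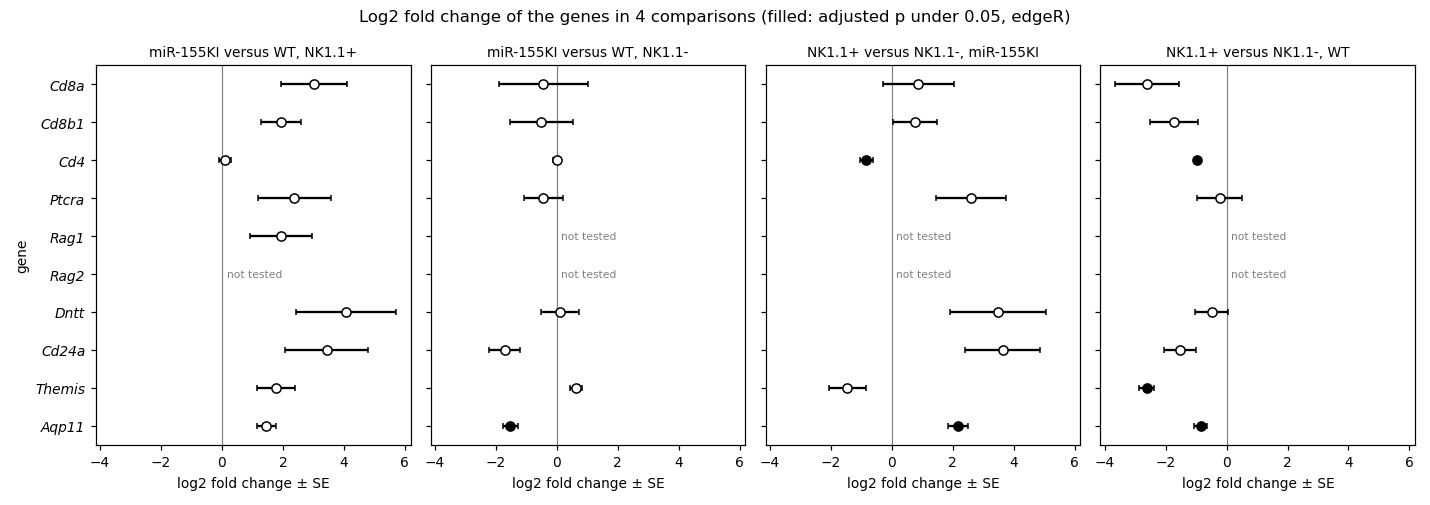
Log2 fold change with its standard error (horizontal axis) of the 10 genes (vertical axis) in the 4 comparisons, filled circles for an edgeR adjusted p under 0.05, and "not tested" where the low-count filter removed the gene. Filled circles mark *Aqp11* in 3 comparisons, *Cd4* in the 2 comparisons of pools and *Themis* in WT mice.

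The genotype effect on *Aqp11* differed between the pools. Over all 12 libraries the interaction, which is the genotype effect in NK1.1+ minus that in NK1.1- cells, had a log2 value of 2.99 ± 0.40 (SE, edgeR adjusted p = 0.00577). It was the 1 called gene of the 9 tested, 1 being higher and 0 lower, against 0.00694% of 14401 genes higher and 0.0208% lower. The value was 2.76 without miR-155KI NK1.1+ replicate 1 (edgeR adjusted p = 0.00904), and limma-voom gave 2.94 with an adjusted p of 0.11. *Cd24a* had an interaction of 5.15 (edgeR adjusted p = 0.432) and 2.44 without that library, the others between 0.10 and 3.95, and none of these passed. The interactions of *Dntt* (3.95), *Cd8a* (3.48), *Ptcra* (2.80), *Rag1* (2.58) and *Cd8b1* (2.45) were 0.74, 0.93, 0.23, 2.01 and 1.67 without that library, in the same order. Those of *Cd4* and *Themis* were positive over all 12 libraries and turned round without that library, to -0.11 and -0.12.

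Other genes of DP thymocytes did not move as 1 group. Of 13 listed DP genes, edgeR called 0 between genotypes of NK1.1+ cells (6 had an unadjusted p under 0.05, and DESeq2 called 4, with 316 called over all genes). Their median log2 fold change was 0.41 against 0.02 over all genes. For NK1.1- cells 1 rose and 1 fell in miR-155KI, against 1.93% and 1.5% of all genes. *Nrgn*, which encodes the calmodulin-binding protein neurogranin, had 1.24 on the log2 scale (edgeR adjusted p = 0.0396). In WT mice 2 of the 13 rose and 4 fell in NK1.1+ cells, *Ccr9*, a chemokine receptor of thymocytes, with -3.24 (edgeR adjusted p = 6.73e-06), and in miR-155KI mice 1 rose and 3 fell. Over all genes 9.89% rose and 10.9% fell between the WT pools, and 7.92% rose and 6.15% fell between the miR-155KI pools. Of 13 listed E protein genes and recombination partners, *Id3*, an inhibitor of E proteins, rose with genotype in NK1.1- cells (log2 fold change 0.53, edgeR adjusted p = 0.0496) while edgeR called 0 for NK1.1+ cells (2 at an unadjusted p under 0.05, 1 by DESeq2). Of 14 partners of coreceptor and pre-TCR signaling, *Runx3*, a repressor of *Cd4*, fell with genotype in NK1.1- cells (log2 fold change -1.142, edgeR adjusted p = 0.00342) while edgeR called 0 for NK1.1+ cells (3 at an unadjusted p under 0.05, 0 by DESeq2). Of 12 listed DN genes, of which 7 could be tested between the pools of WT mice, *Dtx1* and *Il2ra*, a Notch target and the gene of CD25, rose in NK1.1+ cells (log2 fold changes 1.65 and 1.43, edgeR adjusted p = 0.000206 and 0.0265). The DN list as a whole did not rise there, as only 3 of the 7 had a positive log2 fold change and the median was -0.35. None of the 7 was called lower. The lists were chosen with earlier results of these data known.

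Of the 13 DP genes, 4 were highest in miR-155KI NK1.1+ replicate 1, against 9.66% of all 14333 genes. *Arpp21*, which encodes a cAMP-regulated phosphoprotein, was 43.0 CPM there, 11.1 times the highest of the other 11 libraries, and *Dgkeos*, a transcript antisense to *Dgke*, was 20.6 CPM, 16.8 times the highest. *Endou*, an endoribonuclease gene, was 14.9 CPM and 5.06 times the highest, whereas *Ccr9* at 60.6 CPM was 0.166 times the highest. Of the 12 DN genes, with or without passing the low-count filter, 6 were highest there, against 9.66% of the genes that passed it. Among them were the progenitor antigen gene *Cd34* (5.57 CPM), the receptor gene *Notch3* (8.38 CPM) and *Kit* (13.03 CPM), which encodes the stem cell factor receptor. The other 6 were lower there than in some other library, with *Notch1* at 0.826, *Dtx1* at 0.592, *Hes1* at 0.562, *Vpreb1* at 0.0834 and *Vpreb3* at 0.0564 times the highest and *Igll1* at a count of 0. In all, 179 of 14333 genes (1.25%) were at least 2 times and 46 (0.321%) at least 4 times as high there as in any other library, and *Dntt*, *Ptcra* and *Cd24a* were past 4 times. *Rag2* was past 4 times too, but it did not pass the low-count filter and so is not among the 14333. *Foxp3*, the gene of the transcription factor of regulatory T cells, was also highest there, at 4.98 CPM against at most 0.896 CPM elsewhere.

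Marker lists of other cells moved between these libraries too. The summed level of *Cd8a*, *Cd8b1*, *Ptcra*, *Rag1*, *Rag2* and *Dntt*, which mature *i*NKT cells are not known for, was 165.7, 6.39 and 21.0 CPM in miR-155KI NK1.1+ against 6.31, 7.17 and 7.75 CPM in WT NK1.1+ replicates, and 28.5, 5.21 and 11.6 CPM in miR-155KI NK1.1- against 40.2, 12.6 and 4.96 CPM in WT NK1.1- replicates. The sum of 14 myeloid and dendritic markers was 447, 933 and 248 CPM in miR-155KI NK1.1+ against 52.6, 50.7 and 65.1 CPM in WT NK1.1+ replicates, without overlap. Of 11 tested markers 9 had a positive log2 fold change, with a median of 3.76. The complement genes *C1qa* (4.19) and *C1qc* (4.30) passed (edgeR adjusted p = 0.0286 for both), so they were 2 of the 3 genes called among all genes in this comparison. DESeq2 called 8 of the markers, with 316 called over all genes. The markers did not peak in 1 library, as 7 of the 14 were highest in miR-155KI NK1.1+ replicate 2, 3 in replicate 1 and 1 in replicate 3. Of all 14333 genes, 19.3% were highest in replicate 2, 9.66% in replicate 1 and 13.7% in replicate 3 of that group. The 14 markers, unlike those genes, did not have to pass the low-count filter. The lysozyme gene *Lyz2* was 142 CPM in replicate 1, which was 3.26 times the next library. In NK1.1- cells the myeloid sum was 148, 68.9 and 153 CPM in miR-155KI against 236, 82.5 and 98.6 CPM in WT replicates, so the genotypes overlapped there. The sum of 6 erythroid markers was highest in replicate 3 of every group. Among dendritic cell markers in NK1.1+ cells, *Clec9a* reached at most 0.0614 CPM among miR-155KI libraries, against 0.168 CPM among WT libraries, and *Xcr1* was 2.13 to 3.56 CPM among miR-155KI, against 1.91 to 3.65 CPM among WT libraries. *Siglech* (1.51 CPM) and *Cd74* (78.1 CPM) were highest in miR-155KI NK1.1+ replicate 1, at 2.62 and 1.04 times the next library. *Xcr1*, *Itgax* and *Flt3* were at 0.426, 0.196 and 0.152 times the highest of the other libraries there, and *Clec9a* was at 0. The sum of 8 *i*NKT markers was 3937, 5612 and 5358 CPM in miR-155KI NK1.1+ against 5933, 5076 and 4987 CPM in WT NK1.1+ replicates. Among NK1.1+ libraries it was lowest in the one with the most *Dntt*, and all NK1.1- libraries were lower still, at 2083 to 2516 CPM. The part of other cells in the levels of the 10 genes was not tested.

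**Figure D5:**
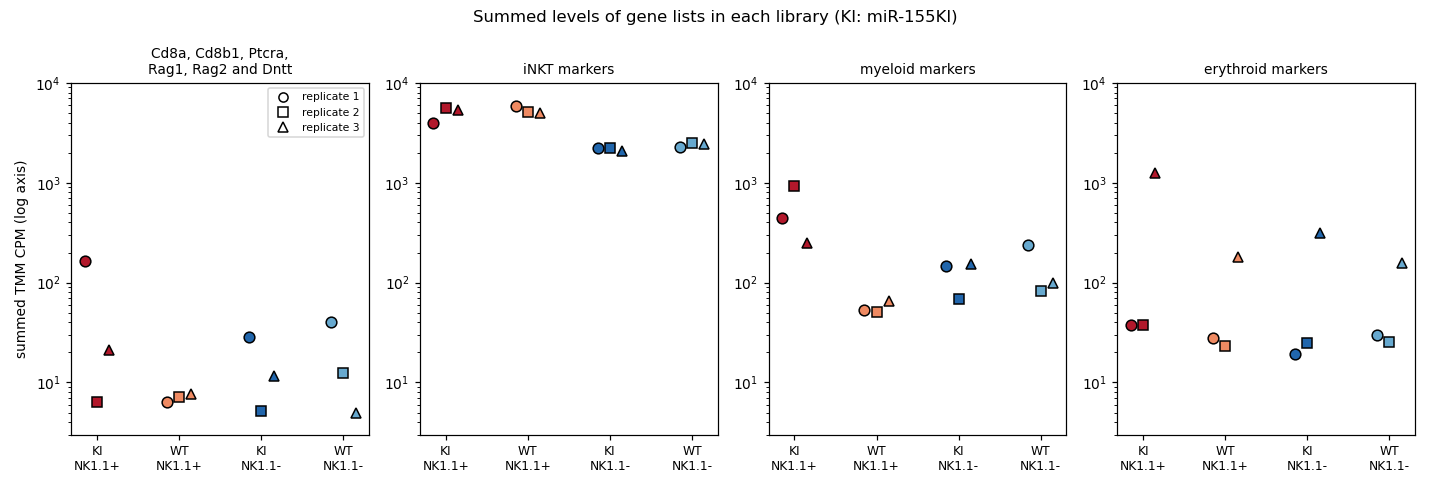
Summed TMM-normalized CPM (vertical axis, logarithmic) of 6 of the genes, of 8 *i*NKT markers, of 14 myeloid and dendritic markers and of 6 erythroid markers in the 12 libraries by group, with shapes for replicates. The 6 genes are highest in miR-155KI NK1.1+ replicate 1 (165.7 CPM), the myeloid markers in replicate 2 (933 CPM) and the erythroid markers in replicate 3 of that group (1243 CPM).

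The genes most like these 6 in level over the 12 libraries were *Colq*, which encodes the collagen tail of acetylcholinesterase (r = 0.943 with the mean standardized log2 level of the 6), *Ly6d*, a surface antigen of lymphoid progenitors (r = 0.929), and *Clec4a1*, a C-type lectin of myeloid cells (r = 0.923). *Pld4*, *Dgkeos*, *Ccl6*, *Slfn4*, *Csf2rb*, *Arpp21* and *Cd33* followed, with r between 0.876 and 0.915, and of these *Ccl6*, *Csf2rb* and *Cd33* are also known from myeloid cells. *Colq* was 18.2, 4.61 and 5.81 CPM in miR-155KI NK1.1+ against 3.66, 3.92 and 2.96 CPM in WT NK1.1+ replicates. Without miR-155KI NK1.1+ replicate 1, *Colq*, *Clec4a1*, *Pld4* and *Cd33* were still among the 10 most alike (r = 0.811, 0.866, 0.797 and 0.779), while *Arpp21* had r = 0.514 and *Dgkeos* r = 0.544. The correlations describe 12 libraries that share preparation and normalization, and they carry no test.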

How the data were processed

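Raw read counts for each gene and a CPM table were deposited. The deposited CPM values were treated as a normalized signal, since each library's values are its counts times 1 factor and the libraries' sums differ. Per the labels, reads were demultiplexed with bcl2fastq 2.17.1.14 and GRCm38 (mm10) was used. The aligner and counter are not given in the sources used here. All 12 libraries were used, 0 sample columns were left unused, and 27 names turned into dates by a spreadsheet hold 0.249% of counts. No pair of libraries within a group agreed within sampling noise, and pairs across groups were not compared.

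Tests used edgeR 4.0.16 in R 4.3.3 (TMM, filterByExpr with a minimum count of 10, robust quasi-likelihood test, Benjamini-Hochberg threshold 0.05 over all genes tested), 6 libraries per comparison and 12 for the interaction. Levels are TMM-normalized over 12 libraries. The script was tested on simulated data. The alternatives were DESeq2 1.42.0, limma 3.58.1 (voom, and log2 of the deposited CPM + 1 or + 0.1), RLE factors, no filter, at least 10 counts in every library, no robust option, all 12 libraries in 1 fit, the replicate block, a Y-linked to *Xist* covariate and each library left out. Figures were drawn in Python 3.11.15.

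All 10 genes are named. Of other lists, genes that passed or had the smallest p are named, with the 10 genes most correlated with 6 members. *Foxp3*, *Cd34*, *Notch3*, *Kit*, *Lyz2*, *Siglech*, *Cd74*, *Xcr1*, *Clec9a*, *Itgax*, *Flt3*, and *Arpp21*, *Dgkeos*, *Endou* and *Ccr9* for their levels in 1 library, were chosen after their values were seen. Some listed genes are counted but not reported by name here. Members, lists and tests were chosen with earlier results of these data known. Replicate numbers pair the WT pools, where deviations from the group means correlated between same-numbered libraries (r = 0.289, 0.238, 0.101). In the other comparisons at least 1 pair was under 0.1. Positions come from GENCODE M21 and promoters from RefSeq (GRCm38.p6). Promoters of the other 3 members were not analysed here.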

Additional observations from a re-analysis of the deposited data

Results flagged for a closer look

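The genotype effect on *Aqp11* differed between the NK1.1+ and NK1.1- pools in a test of the difference itself, with a log2 interaction of 2.99 ± 0.40 (SE, edgeR adjusted p = 0.00577). All 3 miR-155KI libraries lay above all 3 WT libraries in NK1.1+ cells, and all 3 below in NK1.1- cells.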

How the results depend on the processing

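The number of the 10 genes called between miR-155KI and WT NK1.1- cells was 1, against 3 with DESeq2 or with no filter on low counts, 2 with the replicate block, 0 with the Y-linked to *Xist* covariate, and 1 to 2 with each library left out. In NK1.1+ cells it was 0, against 3 with DESeq2 or no filter, 1 with all 12 libraries in 1 fit and 0 with any library left out. Between the pools it was 3 in WT mice, against 5 with no filter, 4 with the replicate block and 2 to 3 with a library left out, and 2 in miR-155KI mice, against 4 with DESeq2, 3 with the replicate block and 1 to 3 with a library left out. For the interaction it was 1, against 0 with limma-voom. The replicate block brought *Cd24a* past the threshold between genotypes for NK1.1- and between the pools of both genotypes (edgeR adjusted p = 0.0143, 0.0395 and 0.0183) and changed no other call of the 10 genes. The same-number correlations were 0.0534, 0.118 and 0.0803 for NK1.1-, -0.0796, -0.00976 and 0.00071 for NK1.1+ and 0.12, 0.0681 and 0.0627 between the miR-155KI pools. The cause of these shifts was not tested.

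Directions turned round only in values that had not passed. In NK1.1- cells *Cd4* had 0.031 with no filter, 0.026 on the CPM table with either pseudocount, 0.0095 in 1 fit of 12 libraries and 0.050 with the covariate, *Cd8b1* 0.013 with limma-voom and *Dntt* -0.39 with the covariate. With each library left out, the log2 fold changes in NK1.1- cells ran from -2.13 to 1.35 for *Cd8a*, -1.14 to 0.97 for *Cd8b1*, -0.14 to 0.091 for *Cd4* and -0.42 to 0.47 for *Dntt*. For NK1.1+ they ran from -0.12 to 0.29 for *Cd4* and -0.22 to 3.13 for *Ptcra*. Between the pools *Ptcra* ran from -0.96 to 0.21 in WT mice and -0.0087 to 3.13 in miR-155KI mice, where *Cd8a* ran from -1.71 to 2.54 and *Cd8b1* from -0.058 to 1.37. The interactions ran from -0.11 to 0.30 for *Cd4* and -0.12 to 1.56 for *Themis*. All other log2 fold changes of the 10 genes kept their sign under every alternative run.

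Over all genes, the count called in NK1.1- cells was 457, against 960 with DESeq2, 1048 with no filter, 737 with the block, 139 in 1 fit of 12 libraries, 114 with the covariate and 186 to 917 with a library left out, the lowest lacking miR-155KI replicate 1 and the highest lacking WT replicate 1. In NK1.1+ cells it was 3, against 316, 282, 7, 60, 1 and 1 to 125 (without WT replicate 1) in the same settings, and 1 with limma-voom. The pools differed in 2819 genes in WT mice (1832 without WT NK1.1+ replicate 3, to 3264, with a library left out) and 1821 in miR-155KI mice (788 without NK1.1- replicate 3, to 2542). The interaction called 4, against 139 with DESeq2, 162 with no filter, 7 with RLE factors, 10 with at least 10 counts in every library, 0 with limma-voom and 3 to 46 (without miR-155KI NK1.1+ replicate 1) with a library left out. Without the filter *Rag2* between the miR-155KI pools had 4.05 on the log2 scale (edgeR adjusted p = 0.0246), with 81, 1 and 8 counts in NK1.1+ replicates 1, 2 and 3. It had 1.29 without NK1.1+ replicate 1 as well (edgeR adjusted p = 0.645), an alternative chosen after seeing the data.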
